A study of Mus musculus with 12 samples.

Results

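The Wnt ligands, their receptors and their secreted antagonists were examined in NU1, a line of normal mouse urothelial cells that became immortal on its own through repeated passaging. The members were taken by gene symbol: every Wnt, Fzd, Sfrp and Dkk gene of the count table, together with Axin2, Lrp5, Lrp6, Lgr4, Rnf43, Znrf3, Tcf7 and Lef1. This rule used no measured value, although it was written with earlier results of these data known. It gave 45 of the 23337 rows, made up of 19 ligands, 12 receptors, 8 secreted antagonists, 3 regulators at the cell surface and 3 intracellular or nuclear genes. The study grew NU1 cells in 4 groups of 3 libraries, and polyadenylated RNA was sequenced. Control cells carried the lentiviral hairpin labelled shNT (genotype given as WT), and knockdown cells carried the hairpin labelled sh4 (genotype Stag2-KD), against a subunit of the chromosome-folding complex cohesin. Each was grown in a proliferating state, for which no day is given, or made quiescent (labelled differentiation day 7). Quiescent cultures had reached confluence and then received rosiglitazone at 1 µM, an agonist of PPAR gamma, together with erlotinib at 0.5 µM, which inhibits the EGF receptor kinase. All groups shared a medium with serum, EGF, insulin, transferrin, thyroid hormone, hydrocortisone and cholera toxin. Confluence, time and both drugs came together in every quiescent library, so they cannot be told apart, and a single hairpin stood for the knockdown.

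Wnt proteins are secreted, lipid-modified signals. In the best known branch a Wnt binds a Frizzled receptor and its co-receptor Lrp5 or Lrp6, the complex that destroys beta-catenin is held back, and beta-catenin joins factors of the Tcf/Lef family on its target genes. Axin2, a scaffold of the destruction complex, and the ubiquitin ligases Rnf43 and Znrf3, which remove Frizzled receptors from the surface, are themselves widely used targets and act as feedback brakes, while Lgr4 with its R-spondin ligands holds the ligases back. Sfrp proteins bind Wnts outside the cell, and Dkk proteins block Lrp5 and Lrp6. Other Wnts, of which Wnt5a is the usual example, also signal without beta-catenin. In the bladder the basal urothelium is known to exchange Wnt signals with the stroma beneath it, but a culture of 1 epithelial line holds no stroma.

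Totals ran from 14524429 to 21987539 counts per library, and the members were followed on the CPM scale, which sets each count relative to its library's scaled total. Each group had 1 library from each of experiments 5, 7 and 9, and the labels give each experiment its own batch number. Stag2 itself was at 139, 145 and 113 CPM in proliferating control libraries of experiments 5, 7 and 9 and at 33.3, 24.9 and 24.6 CPM in knockdown libraries. Quiescent control libraries had 128, 126 and 107 CPM and quiescent knockdown libraries 9.43, 15.3 and 11.7 CPM, so control and knockdown did not overlap in either state. The log2 fold changes were -2.26 ± 0.19 (SE; adjusted p 0.00121 by edgeR) and -3.32 ± 0.20 (SE; adjusted p 3.39e-05 by edgeR). The line was checked against its labelled cell type. The keratins Krt7, Krt8, Krt18 and Krt19 and the adhesion genes Cdh1 and Epcam were at medians of 519 CPM or more, whereas Trp63, a basal urothelial factor, had no count in any library and Upk3a, a plaque protein of the mature surface, reached at most 0.0453 CPM. Elf3 and Gata3 had medians of 205 and 36.2 CPM. Krt5, Krt14, Grhl3, Pparg, Upk1a, Upk1b, Upk2 and Upk3b had medians of at most 3.47 CPM, so most listed genes particular to urothelium were low. The 18 listed epithelial markers together were at 21444 to 23355 CPM in quiescent knockdown libraries and at 12313 to 19330 CPM in the others. Krt7, Krt8, Krt18 and Krt19 made up most of this sum. The part of these markers in the results below was not tested. Of the 21 fibroblast, smooth muscle, endothelial and immune markers, Col1a2, Col3a1, Lum, Cd3e and Emr1 had no count, the 8 fibroblast markers summed to at most 2.27 CPM, and Cd68 alone took the immune list above 1 CPM, with 1.55 to 9.36 CPM.

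Of the 45 members, 23 passed the filter on low counts and were tested. The other 22 were close to silent. They included 6 with no count in any library (Wnt1, Wnt3, Wnt3a, Wnt8a, Dkk2 and Dkk4), which allows at most 0.136 to 0.207 CPM per library (3 counts, for counting error only). Apart from Lef1, none of the 22 had more than 7 counts in a library. Lef1, a nuclear partner of beta-catenin, had 0 to 13 counts in the 6 proliferating libraries and 1 count in all 6 quiescent libraries together, too few to test. Reads per gene from a bulk culture do not tell fewer expressing cells from less RNA per cell.

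Ligands dominated the set. To compare genes with each other, CPM were divided by the length of all annotated exons in kilobases (kb). On this scale Wnt7b was the highest member, with 99.7 to 154 CPM per kb over the 12 libraries. Wnt7a followed with 52.8 to 124, Wnt10a with 19.7 to 92.2 and Wnt4 with 17.0 to 74.5 CPM per kb, so that neighbours in this order overlapped, while every Wnt7b library was above every Wnt10a and Wnt4 library. Wnt9a (6.03 to 21.5), Wnt5a (1.05 to 9.53) and Wnt6 (0.0785 to 2.15 CPM per kb) were lower, and the other 12 ligands were among the near-silent genes. Of the summed level per length of all ligands, Wnt7b held 46.9% ± 5.01 (SD, n = 3) in proliferating control and 32.4% ± 1.59 (SD, n = 3) in quiescent control libraries. Wnt4 held 8.98% ± 0.729 (SD, n = 3) and 18.1% ± 6.15 (SD, n = 3). The ranges did not overlap for either ligand, which is given as a description with no test. The sum itself was 300.1 ± 68.6 (SD, n = 3) CPM per kb in proliferating and 353 ± 50.8 (SD, n = 3) CPM per kb in quiescent control libraries, and these ranges overlapped.

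Among receptors the co-receptor Lrp5 (14.1 to 25.9 CPM per kb over the 12 libraries) and Fzd6 (17.9 to 26.0) were the highest and did not differ beyond their spread. Fzd2 (8.27 to 15.2), Fzd1 (7.09 to 14.6) and Lrp6 (8.55 to 11.9) came next, again with overlapping ranges, followed by Fzd7 (3.78 to 14.9 CPM per kb). Fzd10, Fzd5, Fzd4 and Fzd8 had means of 2.94, 2.86, 1.28 and 0.634 CPM per kb, and Fzd3 and Fzd9 were near-silent. Sfrp1 was the only antagonist that was tested, at a mean of 0.598 and a highest value of 1.91 CPM per kb, and all 4 Dkk genes had at most 1 count per library. Of the surface regulators Znrf3 was the highest (2.35 to 3.82 CPM per kb). Of the intracellular and nuclear members the Tcf/Lef factor Tcf7 had the higher mean over the 12 libraries (2.10 to 5.64 CPM per kb). Its range overlapped that of Axin2 (0.125 to 7.07), which had the higher mean in quiescent control libraries (4.06 ± 3.11 (SD, n = 3) against 2.85 ± 0.298 (SD, n = 3) CPM per kb).

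**Figure D1:**
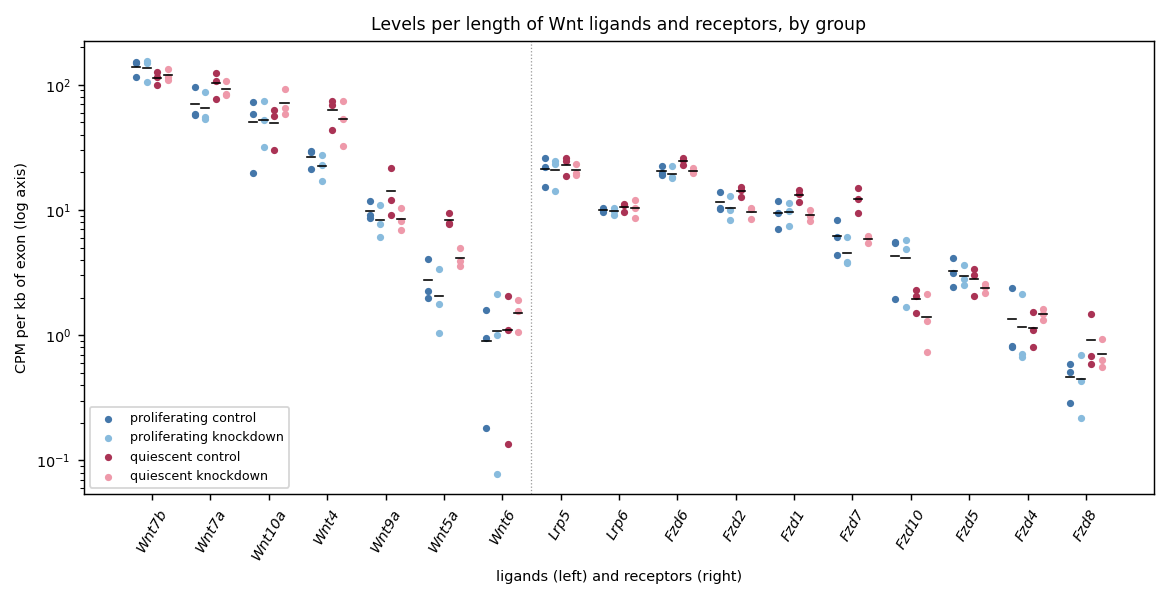
Level of each tested ligand (left of the dotted line) and receptor (right) in CPM per kb of exon on a log axis. Points are the 12 libraries coloured by group and short bars are group means of 3. Wnt7b, Wnt7a, Wnt10a and Wnt4 lie above every receptor on average, and Wnt6 spans from 0.0785 to 2.15 CPM per kb.

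Quiescence in control cells was compared first, since it asks how the Wnt genes differ between the 2 states when Stag2 is intact. Of the 23 members 6 changed. Wnt4, Wnt5a, Fzd7 and Rnf43 rose, and Sfrp1 and Tcf7 fell. The 6 were 26.1% of the tested members, beside 20.0% of all 12406 tested genes. Over the 23 members the median log2 fold change was 0.29, beside 0.0047 for all genes, where log2 fold change is positive when quiescent cells are higher. Tests were edgeR's quasi-likelihood tests without a term for experiment, with p adjusted over all tested genes by the Benjamini-Hochberg method and a threshold of 0.05. When a term for experiment was added (the replicate block), 12 members passed, 8 higher and 4 lower, beside 35.3% of all genes, and these 12 held all 6.

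The ligand Wnt4 (chr4:137277489-137299726 in GRCm38) was at 123, 123 and 89.7 CPM in proliferating control libraries of experiments 5, 7 and 9, and at 312, 182 and 292 CPM in quiescent ones. All quiescent libraries lay above all proliferating ones, with a log2 fold change of 1.23 ± 0.30 (SE; adjusted p 0.0163 by edgeR). Wnt5a (chr14:28504750-28527448) was at 31.7, 17.7 and 15.5 CPM and rose to 74.6, 60.2 and 61.6 CPM, for which the log2 fold change was 1.60 ± 0.37 (SE; adjusted p 0.0125 by edgeR). It too had groups that did not overlap. The most abundant ligand, Wnt7b, was at 679 CPM ± 104 (n = 3, SD) in proliferating and 557 CPM ± 63.9 (n = 3, SD) in quiescent control libraries, lower in each experiment, and passed neither test (-0.29 on the log2 scale, edgeR adjusted p 0.275, with the block 0.0678). Wnt7a, its closest relative among the ligands, was at 224 CPM ± 68.5 (n = 3, SD) and 326 CPM ± 74.5 (n = 3, SD) and was called higher with the block (edgeR adjusted p 0.0432) and not without it (0.165). Wnt10a, Wnt9a and Wnt6 were not called in either fit, with log2 fold changes of -0.019, 0.53 and 0.29.

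Among receptors Fzd7, a Frizzled often linked to epithelial progenitors, was at 37.8, 19.8 and 27.4 CPM in proliferating and 55.7, 42.8 and 67.7 CPM in quiescent control libraries of experiments 5, 7 and 9, and the groups did not overlap. The log2 fold change was 0.97 ± 0.26 (SE; adjusted p 0.0230 by edgeR). Fzd1 (log2 fold change 0.48) and Fzd10 (-1.15) were called only with the block, with edgeR adjusted p of 0.0439 and 0.0118 in place of 0.110 and 0.142. Fzd10 was at 17.9, 17.8 and 6.31 CPM in proliferating and 6.69, 7.40 and 4.89 CPM in quiescent control libraries, and the proliferating library of experiment 9 lay within the quiescent range. Lrp5 and Lrp6 had log2 fold changes of 0.13 and 0.085 and were not called. The Frizzled genes summed to 57.1 ± 9.13 (SD, n = 3) CPM per kb in proliferating and 71.1 ± 2.26 (SD, n = 3) CPM per kb in quiescent control libraries.

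The antagonist Sfrp1 fell. It was at 4.15, 2.83 and 8.35 CPM in proliferating and 1.03, 0.795 and 1.85 CPM in quiescent control libraries, where the latter values are 13 to 31 counts per library. The log2 fold change was -2.05 ± 0.54 (SE; adjusted p 0.0224 by edgeR). Rnf43, the ligase that removes Frizzled receptors, had 6 to 25 counts per library in proliferating and 50 to 87 in quiescent control cells, or 1.40, 0.346 and 1.08 CPM against 5.59, 5.32 and 2.98 CPM. Every quiescent library was above every proliferating one, and the log2 fold change was 2.29 ± 0.65 (SE; adjusted p 0.0306 by edgeR). Its relative Znrf3 had the opposite sign, with 26.7 CPM ± 3.02 (n = 3, SD) and 21.0 CPM ± 1.39 (n = 3, SD), and was called only with the block (log2 fold change -0.35, edgeR adjusted p 0.0928 without and 0.0333 with it). Lgr4, the R-spondin receptor that holds both ligases back, was also called only with the block (0.66, edgeR adjusted p 0.235 and 0.0164).

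Axin2, the feedback scaffold, was at 16.7, 11.2 and 1.76 CPM in proliferating and 23.5, 38.9 and 4.71 CPM in quiescent control libraries of experiments 5, 7 and 9. It was higher in the quiescent library of each experiment, by 0.49, 1.79 and 1.36 on the log2 scale, although the groups overlapped, with experiment 9 the lowest in both. It was called only with the block, with a log2 fold change of 1.25 ± 0.37 (SE; adjusted p 0.0252 by edgeR), against an edgeR adjusted p of 0.472 without it. Tcf7 fell from 11.0, 11.6 and 12.7 CPM to 6.97, 8.38 and 7.09 CPM, with a log2 fold change of -0.66 ± 0.20 (SE; adjusted p 0.0406 by edgeR) and no overlap between the groups. Of the 4 tested members used as beta-catenin targets, Rnf43 rose, Tcf7 fell, and Axin2 (higher) and Znrf3 (lower) passed only with the block.

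**Figure D2:**
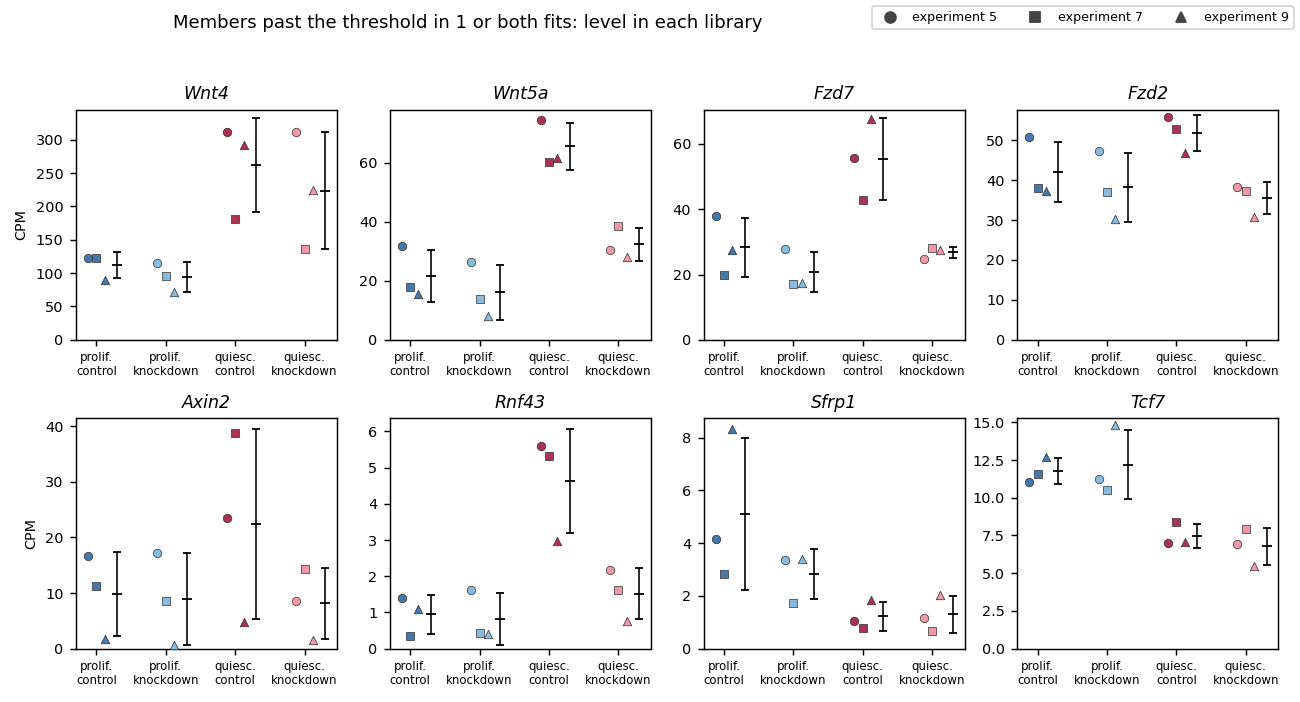
Level in CPM (linear axis from 0) of 8 members in each library; symbols mark experiments 5, 7 and 9, and the bar beside each group is the mean ± SD of 3. Wnt5a, Fzd7 and Rnf43 stand highest in quiescent control libraries and lower again in quiescent knockdown libraries, while Wnt4 is higher and Tcf7 lower in quiescent libraries of both genotypes.

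These calls rested on few libraries. When each of the 12 libraries was left out in turn, the number of members called was between 0 and 7. It was 0 without proliferating control of experiment 9, 2 without that of experiment 7, 1 without quiescent control of experiment 5, and 3 without that of experiment 7 or 9. Wnt5a was past the threshold in 10 of the 12 fits, Wnt4 in 9, Sfrp1 in 9, Fzd7 in 8, Rnf43 in 8 and Tcf7 in 6, and none of the 6 changed sign in any. With a whole experiment left out, 2 members were called without experiment 5 (Fzd7 and Wnt5a), 1 without experiment 7 (Wnt4) and 1 without experiment 9 (Fzd10). The share of all genes called is not set beside these counts. They therefore do not show whether members depended on single libraries more than other genes did.

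The same comparison in Stag2 knockdown cells called 2 members, Wnt4 (higher) and Tcf7 (lower), which is 8.70% of those tested beside 18.4% of all genes. With the block 7 were called (Wnt4, Wnt5a and Lgr4 higher, and Fzd10, Sfrp1, Tcf7 and Znrf3 lower), or 30.4% beside 33.0%. Of those called only with the block, Lgr4 had a log2 fold change of 0.87 in that fit, Fzd10 -1.53, Sfrp1 -1.20 and Znrf3 -0.33. Their edgeR adjusted p were 0.00440, 0.00165, 0.00663 and 0.0424, against 0.136, 0.0609, 0.167 and 0.120 without the block. The median log2 fold change of the 23 members was 0.075, beside 0.0045 for all genes. Wnt4 was at 116, 96.2 and 71.4 CPM in proliferating and 311, 136 and 224 CPM in quiescent knockdown libraries, for which the log2 fold change was 1.25 ± 0.30 (SE; adjusted p 0.0165 by edgeR), close to its value in control cells. Tcf7 was at 11.2, 10.5 and 14.8 CPM and 6.93, 7.93 and 5.50 CPM, for which the log2 fold change was -0.84 ± 0.20 (SE; adjusted p 0.0148 by edgeR). In both genes the states did not overlap.

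Wnt5a was at 26.4, 13.9 and 8.20 CPM in proliferating and 30.4, 38.6 and 28.0 CPM in quiescent knockdown cells, again without overlap, for which the log2 fold change was 1.00 (edgeR adjusted p 0.0850 without and 0.00998 with the block). Fzd7, Rnf43 and Axin2 had log2 fold changes of 0.37, 0.89 and -0.12 and were called in neither fit (edgeR adjusted p 0.349, 0.368 and 0.951 without the block). That these 3 passed a test in control cells and not in knockdown cells does not show a difference, which is the interaction given below. The pair of called members also depended on single libraries: 1 member was called without proliferating knockdown of experiment 7 (Tcf7) or 9 (Fzd10), and 1 without quiescent knockdown of experiment 5 (Tcf7) or 9 (Wnt4). Without the whole of experiment 5 or 7 the 1 called member was Wnt5a or Wnt4. Shares of all genes called are not given for these fits either.

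Knockdown of Stag2 in proliferating cells called none of the 23 members in edgeR, without or with the block, beside 0.0242% of all genes in both fits. At an unadjusted p under 0.05 there were 0 members without the block, beside 1.84% of all genes, and 1 with it, Sfrp1, beside 5.20%. DESeq2 called 0. The median log2 fold change was -0.066, beside -0.0022 for all genes, with 18 members negative and 5 positive (6263 of all 12406 genes were negative). Sfrp1 was at 4.15, 2.83 and 8.35 CPM in control and 3.38, 1.73 and 3.38 CPM in knockdown libraries, lower in each experiment, with a log2 fold change of -0.85 (edgeR adjusted p 1.000). Fzd7 had -0.45 and Wnt5a -0.42, each also lower in all 3 experiments, and neither was called (edgeR adjusted p 1.000 and 1.000).

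Knockdown in quiescent cells gave lower values for most members, few of which passed a test. Without the block 0 of 23 were called, beside 0.435% of all genes, and 7 had an unadjusted p under 0.05, all of them lower in knockdown cells: Fzd1, Fzd2, Fzd6, Fzd7, Rnf43, Wnt5a and Wnt9a. Of all 12406 genes 1489 had such a p, and 5.96% of all genes had it with a lower value in knockdown cells. With the block Fzd2 and Fzd7 were called, both lower, or 8.70% of the members beside 3.55% of all genes, and DESeq2 without the block called 1, Fzd7. The median log2 fold change was -0.23, beside 0.016 for all genes, with 17 members negative and 6 positive (5898 of all 12406 genes were negative). The groups did not overlap for 6 members, all lower in knockdown cells (Fzd1, Fzd2, Fzd6, Fzd7, Rnf43 and Wnt5a), beside 8.85% of all genes. In 12 of the 23 members the knockdown library was lower in all 3 experiments, beside 21.3% of all genes, and in 2, Lgr4 and Fzd4, it was higher in all 3, beside 25.4%.

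Fzd7 was at 55.7, 42.8 and 67.7 CPM in quiescent control libraries of experiments 5, 7 and 9 and at 24.8, 28.1 and 27.5 CPM in quiescent knockdown libraries. The groups did not overlap, and the log2 fold change was -1.02 ± 0.21 (SE; adjusted p 0.0299 by edgeR) with the block and -1.05 ± 0.26 (SE; adjusted p 0.113 by edgeR) without it. Fzd2 was at 55.7, 52.8 and 46.8 CPM and 38.2, 37.3 and 30.9 CPM, also without overlap. Its ratio of knockdown to control was 0.685, 0.706 and 0.659 in experiments 5, 7 and 9, and its log2 fold change -0.55 ± 0.11 (SE; adjusted p 0.0278 by edgeR) with and -0.55 ± 0.18 (SE; adjusted p 0.236 by edgeR) without the block. Fzd1 (-0.54) and Fzd6 (-0.26), which bind Wnts as well, had quiescent knockdown libraries all below the control ones and were not called in either fit (edgeR adjusted p 0.105 and 0.186 with the block). Summed over all Frizzled genes the level was 71.1 ± 2.26 (SD, n = 3) CPM per kb in quiescent control and 51.3 ± 3.06 (SD, n = 3) CPM per kb in quiescent knockdown libraries, given as a description.

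The promoters of Fzd7 and Axin2 are shown because both genes were high in quiescent control and lower in quiescent knockdown libraries, and a Tcf/Lef motif was looked for there. RefSeq promoter sequences (GRCm38.p6) were found for 13 of the 23 tested members, and the 250 bases before each annotated start were searched on both strands for the Tcf/Lef letters CTTTGAA or CTTTGAT, and equally for the letters CTTTGTA or CTTTGTT. A second search was for TTTGAA, the core of the CHR element that the DREAM complex of the study's title binds, which overlaps the first of these. Capitals mark a match. The plus strand of chr1:59481897-59482146 (Fzd7) and of chr11:108920099-108920348 (Axin2) reads, 5′ to 3′:
Fzd7: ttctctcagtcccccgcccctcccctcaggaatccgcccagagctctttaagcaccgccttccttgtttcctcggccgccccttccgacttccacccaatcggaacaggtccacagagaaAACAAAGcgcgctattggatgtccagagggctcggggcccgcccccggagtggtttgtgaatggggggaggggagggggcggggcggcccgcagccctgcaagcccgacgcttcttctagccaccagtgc
Axin2: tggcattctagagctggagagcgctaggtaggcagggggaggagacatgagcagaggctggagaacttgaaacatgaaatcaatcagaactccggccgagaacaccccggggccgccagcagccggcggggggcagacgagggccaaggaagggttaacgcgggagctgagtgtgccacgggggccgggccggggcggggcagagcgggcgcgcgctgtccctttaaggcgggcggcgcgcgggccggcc

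Fzd7 held 1 Tcf/Lef match, on the reverse strand, beginning 130 bases before the start, and the window of Axin2 held neither motif. Rnf43 was also high in quiescent control and lower in quiescent knockdown libraries. Its windows are not shown and held neither motif. Of the 13 members with a promoter sequence, 1 held the Tcf/Lef letters and 0 the CHR letters. Of 32851 promoters in the RefSeq set, 14.8% held the former and 16.0% the latter. A match describes letters only, and the absence of one covers only these windows.

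Wnt5a was at 74.6, 60.2 and 61.6 CPM in quiescent control and 30.4, 38.6 and 28.0 CPM in quiescent knockdown libraries, with no overlap. Its log2 fold change of -1.02 missed the threshold in both fits (edgeR adjusted p 0.295 without and 0.0636 with the block). Rnf43 was at 5.59, 5.32 and 2.98 CPM and 2.18, 1.61 and 0.761 CPM, 13 to 48 counts per library in the latter, with a log2 fold change of -1.60 (edgeR adjusted p 0.340 and 0.0622). For Axin2 the quiescent knockdown libraries held 8.47, 14.3 and 1.58 CPM against 23.5, 38.9 and 4.71 CPM in control, which is 0.360, 0.368 and 0.336 of the control level in experiments 5, 7 and 9. Its level varied so widely between experiments that the groups overlapped, and the log2 fold change of -1.46 missed the threshold (edgeR adjusted p 0.670 without and 0.0553 with the block).

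The ligand Wnt10a had a positive estimate, with 140.2, 155 and 74.6 CPM in quiescent control and 227, 143 and 162 CPM in quiescent knockdown libraries. It was higher in experiments 5 and 9 and slightly lower in experiment 7, and was not called (log2 fold change 0.53, edgeR adjusted p 0.722, with the block 0.238). Lgr4 was at 5.66, 7.71 and 10.5 CPM and 7.21, 12.9 and 12.7 CPM (log2 fold change 0.45, edgeR adjusted p 0.706 and 0.168). Wnt4, Wnt7a and Wnt7b, with Wnt10a the most abundant ligands, had log2 fold changes of -0.23, -0.16 and 0.069 and were not called.

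**Figure D3:**
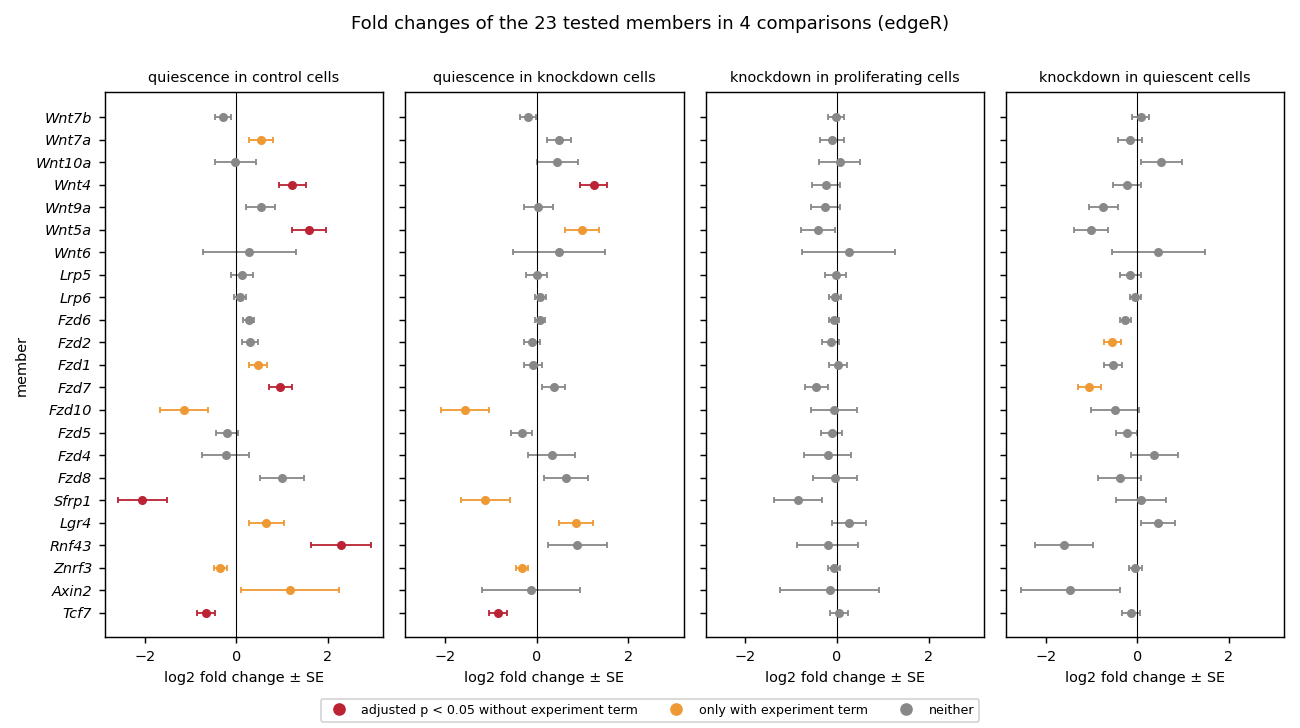
Log2 fold change ± SE of the 23 tested members in 4 comparisons, from the edgeR fit without the experiment term; red points passed an adjusted p of 0.05 in that fit, orange points only with the term, grey points in neither. Most points of the comparison of knockdown in quiescent cells lie left of 0, with Fzd2 and Fzd7 in orange. The first and last panels share the quiescent control libraries.

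The calls of Fzd2 and Fzd7 with the block were lost when 1 of 5 libraries was left out: quiescent control of experiment 5, 7 or 9, or quiescent knockdown of experiment 5 or 9, each of which gave 0 called members. Without quiescent knockdown of experiment 7, or without proliferating knockdown of experiment 5 or 9, 4 members were called, and each of these 3 sets held Fzd2, Fzd7 and Wnt5a. Over these 12 fits the log2 fold change ran from -1.24 to -0.81 for Fzd7 and from -0.62 to -0.49 for Fzd2. Shares of all genes called are not given for these 12 fits.

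Several members that rose with quiescence in control cells had lower values after knockdown in quiescent cells. Both comparisons use the same 3 quiescent control libraries, so they are not independent, and their values are only set side by side. Wnt5a had 1.60 and -1.02 on the log2 scale, Fzd7 0.97 and -1.05, Rnf43 2.29 and -1.60, and Axin2 1.18 and -1.46. Wnt4 had 1.23 and -0.23. Whether the effect of knockdown differed between the states was tested by the interaction, which called 0 members in edgeR without and with the block, beside 0% of all genes in both, and 0 in DESeq2. At an unadjusted p under 0.05 there were 0 members without the block, beside 1.77% of all genes, and 3 with it, beside 4.76%. These were Axin2 (interaction -1.20), Fzd1 (-0.58) and Fzd2 (-0.40), each with an edgeR adjusted p of 0.981 or more. Stag2 itself was lower in quiescent than in proliferating knockdown libraries, without overlap. The depth of knockdown and the state therefore cannot be told apart in this comparison.

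More members were called between the 3 experiments than in either knockdown comparison, without or with the block. The tests are unlike, since the 3 experiments were compared at once and knockdown as a single difference between groups. With the 4 groups as covariates, 9 of 23 members (39.1%) differed between experiments 5, 7 and 9, beside 21.1% of all genes: the ligands Wnt6, Wnt7b and Wnt10a, the receptors Fzd2, Fzd10 and Lrp5, and Sfrp1, Lgr4 and Axin2. Experiment 9 was lower than the mean of the other experiments in all 4 groups for 7 of the 9, and higher in all 4 groups for Lgr4 and Sfrp1. When experiment 9 was left out, 0 members differed between experiments 5 and 7 (4.46% of all genes did), and without proliferating knockdown of experiment 9 alone 4 did, Axin2, Fzd10, Lgr4 and Sfrp1. Without experiment 7 there were 5, Axin2, Fzd10, Lgr4, Wnt10a and Wnt6. Of these reduced fits, the share of all genes is given only for the one without experiment 9.

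Axin2 stood furthest apart. Its mean over the 4 groups was 16.5, 18.2 and 2.18 CPM in experiments 5, 7 and 9, and the highest library of experiment 9 (4.71 CPM) was below the lowest of experiments 5 and 7 (8.47 CPM). Experiment 9 was at -3.05 ± 0.60 (SD, n = 4) on the log2 scale against the mean of the others within groups (edgeR adjusted p 9.27e-04 for the experiments). Fzd10 was at -1.19 ± 0.50 (SD, n = 4) in the same measure (edgeR adjusted p 0.00812). Lgr4 and Sfrp1 were higher in experiment 9, at 0.68 ± 0.21 (SD, n = 4) and 0.94 ± 0.35 (SD, n = 4), with edgeR adjusted p of 0.00766 and 0.00861. The labels give no difference between the experiments other than their number and batch.

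Wnt6 and Wnt10a are neighbours, 6193 bases apart on the plus strand of chromosome 1 (chr1:74771892-74785322 and chr1:74791516-74804179), and both were low in experiment 9. Wnt6 had 37, 60 and 7 counts in proliferating control libraries of experiments 5, 7 and 9, 38, 79 and 3 in proliferating knockdown, 35, 74 and 5 in quiescent control and 93, 57 and 40 in quiescent knockdown libraries. Experiment 9 was the lowest in all 4 groups, with 3 to 7 counts in 3 of them and 40 in quiescent knockdown. Wnt10a was at 145, 181 and 48.6 CPM in proliferating control, 130.1, 183 and 78.1 CPM in proliferating knockdown, 140.2, 155 and 74.6 CPM in quiescent control and 227, 143 and 162 CPM in quiescent knockdown libraries. It was lowest in experiment 9 in 3 groups and in experiment 7 in quiescent knockdown. The edgeR adjusted p for the experiments was 0.0169 for Wnt6 and 0.0337 for Wnt10a. Whether reads of one gene were counted for the other cannot be told from the table.

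**Figure D4:**
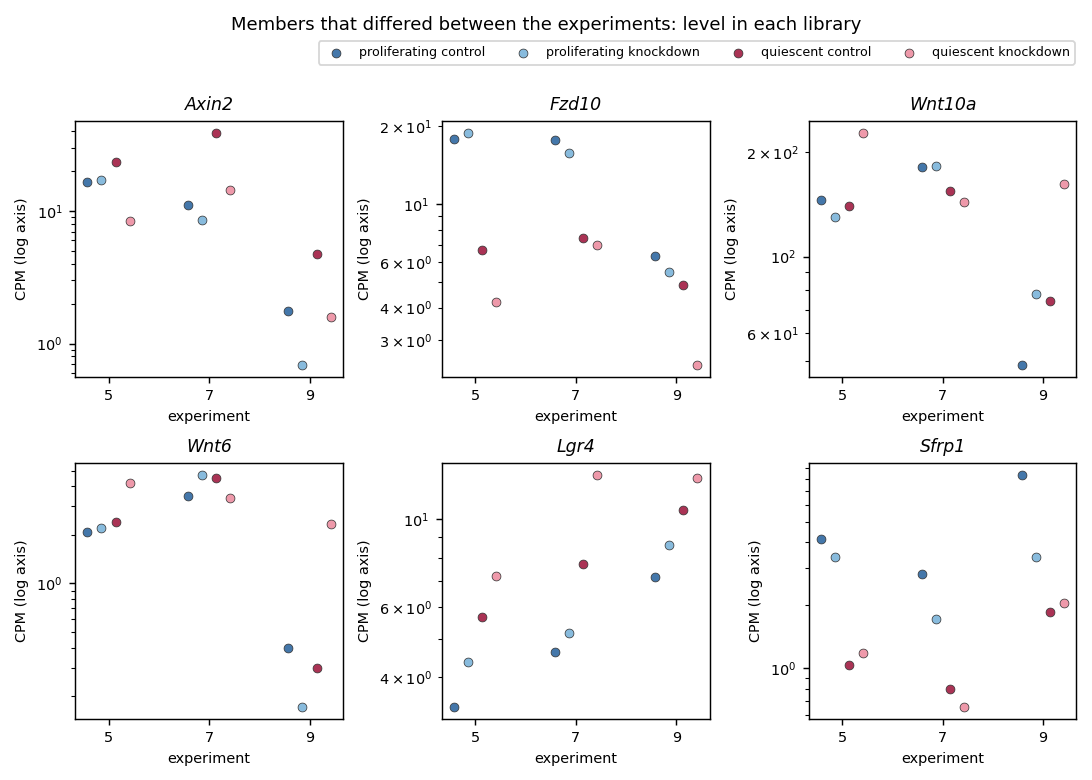
Level in CPM (log axis) of 6 members that differed between experiments, with 1 point per library placed by experiment and coloured by group. For Axin2, Fzd10, Wnt10a and Wnt6 the points of experiment 9 lie mostly below those of the same group in experiments 5 and 7, and for Lgr4 and Sfrp1 mostly above them or level with the higher one.

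Other genes of the pathway were taken from 7 lists with 76 genes, of which 56 were tested. With quiescence in control cells 6 were higher and 9 lower (with the block 12 and 10), in knockdown cells 4 and 7 (7 and 11), and knockdown called 0 in proliferating cells and 0 in quiescent cells (1 higher and 1 lower with the block). All genes were called at 20.0% and 18.4% in the 2 comparisons of states (with the block 35.3% and 33.0%). For knockdown all genes were called at 0.0242% in proliferating cells in both fits. In quiescent cells the share was 0.435%, and 3.55% with the block. Lists were written with earlier results of these data known. In the list of ligand secretion 4 of 6 were tested and 1 changed: Porcn, which attaches the lipid that Wnts need, fell in control cells, being at 39.6 CPM ± 14.3 (SD, n = 3) when proliferating and 13.8 CPM ± 6.23 (SD, n = 3) when quiescent, with a log2 fold change of -1.52 ± 0.35 (SE; adjusted p 0.0113 by edgeR). Its value in knockdown cells was -1.39 ± 0.35 (SE; adjusted p 0.0187 by edgeR). Wls, which carries Wnts to the cell surface, was called higher only with the block. It was at 246 CPM ± 69.0 (SD, n = 3) in proliferating and 380.2 CPM ± 18.3 (SD, n = 3) in quiescent control libraries (edgeR adjusted p 0.0509 without and 0.00592 with the block). In the R-spondin list 1 of 6 was tested, Lgr6, and the ligand genes Rspo1 to Rspo4 had at most 1 count per library. Lgr6 fell in control cells, where proliferating libraries had 5.08 CPM ± 4.36 (SD, n = 3) and quiescent ones 0.576 CPM ± 0.470 (SD, n = 3). These were 38 to 180 and 1 to 16 counts per library. The log2 fold change was -3.13 ± 0.89 (SE; adjusted p 0.0300 by edgeR).

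Of 10 tested genes of the nuclear complex 2 rose in both comparisons of the states, the Tcf factor Tcf7l2 and the co-repressor Tle3. In control cells the log2 fold change of Tcf7l2 was 1.22 ± 0.24 (SE; adjusted p 0.00492 by edgeR) and that of Tle3 1.04 ± 0.22 (SE; adjusted p 0.00774 by edgeR). Tcf7l2 was at 8.19 CPM ± 3.08 (SD, n = 3) in proliferating and 19.1 CPM ± 1.54 (SD, n = 3) in quiescent control libraries, the opposite direction to Tcf7. Of 16 genes of the Dishevelled and destruction complex list, all tested, Apc2 rose (1.75) and the tankyrase gene Tnks2 fell (-0.45) in control cells, while Ctnnb1, which encodes beta-catenin, was not called (log2 fold change 0.43). Of 8 planar polarity genes 1 rose, the cadherin gene Celsr2 (0.98). None of 6 tested genes of the other receptors was called with quiescence. With the block Ror1, a receptor for Wnt5a, was lower after knockdown in quiescent cells (log2 fold change -2.61, edgeR adjusted p 0.0144). This rests on 3 to 13 counts per library in quiescent knockdown and 17 to 69 in quiescent control cells. In proliferating cells Ror1 was also lower in knockdown, with 5 to 10 counts per library against 23 to 35 in control. It was not called there in either fit.

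Of 16 genes often used as beta-catenin targets, 11 were tested. In control cells 2 rose with quiescence (Id2 and Sox9) and 6 fell (Birc5, Ccnd1, Cd44, Fosl1, Jag1 and Nkd2), beside 20.0% of all genes called, and the median log2 fold change was -1.14, beside 0.0047 for all genes. Birc5, the survivin gene, was at 50.7 CPM ± 12.8 (SD, n = 3) in proliferating libraries and fell to 1.56 CPM ± 1.21 (SD, n = 3) in quiescent ones, for which the log2 fold change was -4.99 ± 0.76 (SE; adjusted p 0.00126 by edgeR). Fosl1, an AP-1 subunit, fell by 3.53 on the log2 scale, and the feedback gene Nkd2 fell to 0 to 3 counts per library. Birc5 and Ccnd1 are also known as genes of cell proliferation, and Fosl1 as a gene of growth factor signalling. After knockdown 0 of the 11 were called in either state. With the block Jag1 was higher in quiescent knockdown cells (log2 fold change 1.00, edgeR adjusted p 0.0270).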

How the data were processed

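RNA of 12 libraries was sequenced after selection of polyadenylated RNA with a kit that keeps the strand, per the labels' protocols. The deposited table held whole-number counts per gene with no further scaling by the authors. Bowtie, TopHat, HTSeq and DESeq2 and the build mm10 are named in the submitters' processing notes, without versions. The annotation and the strand setting of the counting are not given in the sources used here. Whether the experiments were separate cultures is not stated beyond their number and batch, so p-values measure the spread between these libraries.

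From the counts, edgeR 4.0.16 (R 4.3.3) was run with TMM scaling, a filter at a minimum count of 10 that left 12406 genes, and quasi-likelihood tests of the 4 group means over all 12 libraries, with Benjamini-Hochberg adjustment across the tested genes and a threshold of 0.05. SE is the log2 fold change divided by the root of F. The second fit added the experiment as a replicate block: libraries of the same number deviated together from their group means (mean r 0.526 over 18 pairs, lowest 0.225, across genes), and the labels give each number its own batch. CPM used TMM-scaled totals, and levels per length used the exons of GENCODE M21 (GRCm38). On simulated counts for quiescence in control cells (12265 genes), the fit without the block recovered 33.7% of 2-fold and 91.9% of 4-fold changes. The fit with the block recovered 78.6% and 98.0%. False calls were 1 without and 6 with the block. The simulation changed 98 genes by 2-fold and 99 by 4-fold, a far smaller share than was called in the data. Experiment shifts had the same spread for all genes, and the scatter came from the fit with the block. The rates describe these settings and not the power in the data.

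The members and gene lists were chosen with earlier results of these data known. Members past the threshold in any comparison were given in full, those past it only with the block by their values, and the highest of each role was named; of other lists, at most 3 called genes per list and comparison, plus genes named after their values were seen (Ctnnb1, Wls, Id2, Sox9, Ccnd1, Cd44, Jag1 and Ror1). Alternatives were DESeq2 1.42.0, other scaling and filters, the libraries of a comparison alone, and leaving out each library. Leaving out whole experiments was chosen after seeing the data.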

Additional observations from a re-analysis of the deposited data

How the results depend on the processing

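Without the experiment term, 0 members were called for knockdown in quiescent cells, 2 with the replicate block and 1 with DESeq2. For quiescence in control cells the 6 called became 12 with the block and 0 to 7 with libraries or experiments left out. For quiescence in knockdown cells the 2 became 7 with the block, 4 with DESeq2, 1 with the libraries of that comparison alone and 1 to 3 in the fits that left out libraries or experiments. The 9 members that differed between experiments became 0 to 11 in such fits. With the block, the 2 called for knockdown in quiescent cells became 5 with no filter on low counts and 0 to 4 with libraries or experiments left out. The 12 for quiescence in control cells became 4 to 16, and the 7 in knockdown cells 4 to 9. Shares of all genes called are not given beside these alternative counts, so the counts do not compare members with other genes. Over 589 alternative values of 29 log2 fold changes of named members, 0 reversed, 488 stayed on their side of the threshold, 67 fell short of it and 34 came past it. The 29 hold Fzd2, Fzd7, Wnt5a, Axin2 and Rnf43 for knockdown in quiescent cells in both fits. Most were named because they passed the threshold in these data, and the fits reuse the same 12 libraries. The 0 reversals are therefore no measure of stability. The causes of the moves across the threshold were not tested. Median-of-ratios scaling moved the median of all genes by at most 0.0096 on the log2 scale. Depth limits the tested members Rnf43, Sfrp1 and Wnt6 most, with under 15 counts in at least 1 library each. Axin2 was under 15 counts only in proliferating knockdown of experiment 9 (12 counts) and reached 636 in its highest library.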

Other observations

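The members hold 4 pairs of ligand genes that lie next to each other. Counts over all 12 libraries were uneven for Wnt10a with Wnt6 and for Wnt9a with Wnt3a. Wnt10a had 29244 counts and Wnt6 had 528, with 6193 bases between them. Wnt9a had 6967 counts and Wnt3a, 16175 bases away, had 0. The other pairs were near-silent on both sides. Wnt10b had 27 counts and Wnt1, 11706 bases away, had 0, and Wnt9b had 12 and Wnt3, 24328 bases away, had 0.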
